A study of Mus musculus with 2 samples.

Results

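The cytosolic ribosomal protein genes were followed in total RNA-seq of the mouse adrenal gland on the day of birth. The members are the protein-coding genes named Rpl or Rps with a number and an optional ending a, l, x or y, together with Rplp0, Rplp1, Rplp2 and Rpsa. S6 kinase genes, predicted Gm genes and names marked as pseudogenes were left out. The rule found 80 genes of the 43346 Ensembl genes in the tables, of which 46 encode proteins of the large subunit, 3 the stalk of the large subunit and 31 the small subunit. They lie on 19 chromosomes, with 14 on chromosome 7 and 4 on the X chromosome (Rps4x, Rpl10, Rpl36a and Rpl39).

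Both libraries belong to 1 group. Each was made from the 2 adrenals of 1 B6NCrl pup at postnatal day 0, from 10 ng of RNA with spike-in RNA added. The labels record 1 shared identifier of the mother and leave the sex out. Pup 2 gave 40800539 estimated counts and pup 1 gave 41510071. With 1 library per pup no test between the pups is possible, so a ratio of the pups is a description of these libraries, and its interval covers counting error only.

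Transcripts of the labelled tissue were abundant: the 11 steroidogenic and chromaffin markers had a median of 1271 TPM in pup 2 and 477 in pup 1 (TPM, a relative level per transcript length). The 5 erythroid markers summed to 23354 TPM in pup 2 and 28821 in pup 1, the 4 liver markers to 1756 TPM in pup 2 and 2259 in pup 1, the 3 skeletal muscle markers to 225 TPM in pup 2 and 55.8 in pup 1, and the 3 stomach markers, of which Gkn1 was at 0 in pup 2, to 4.86 TPM in pup 2 and 118 in pup 1. The 3 kidney markers were near 0 in both pups, at a sum of 0.12 TPM in pup 2 and 0.11 in pup 1. In whole tissue, fewer cells of a type and less RNA per cell cannot be told apart.

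A cytosolic ribosome joins a small subunit, which reads the messenger RNA, to a large subunit, which forms the peptide bond. Each of its proteins is needed in about equal number, and in mammals most are made from 1 intron-containing gene. That gene is often accompanied by processed copies without introns, which arose from reverse-transcribed messenger RNA and lie elsewhere in the genome. Many ribosomal protein messengers begin with a tract of pyrimidines that places their translation under the control of the growth-regulating kinase mTOR.

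Sequences from GENCODE M21 and RefSeq, both on GRCm38, show what a read can tell apart in this family. Rpl41, the gene with the highest level, encodes the smallest ribosomal protein, and its whole coding sequence of 78 bases is shown for its shortness (minus strand, 3 exons, chr10:128548387-128548960):
Rpl41: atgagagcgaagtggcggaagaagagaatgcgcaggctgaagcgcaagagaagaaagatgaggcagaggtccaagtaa

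The first 120 coding bases of Rps27 (minus strand, 3 exons, chr3:90213040-90213615), of its single-exon copy Rps27rt (minus strand, chr9:114982588-114982707) and of its paralog Rps27l (plus strand, 3 exons, chr9:66946175-66947591) are shown because the count of Rps27 depends on how reads are divided among such genes. Capitals mark the 28 bases at which Rps27l and Rps27 differ, and Rps27rt and Rps27 are identical here:
Rps27: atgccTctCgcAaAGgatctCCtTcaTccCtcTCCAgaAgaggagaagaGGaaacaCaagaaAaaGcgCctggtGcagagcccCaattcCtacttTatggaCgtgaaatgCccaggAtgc
Rps27rt: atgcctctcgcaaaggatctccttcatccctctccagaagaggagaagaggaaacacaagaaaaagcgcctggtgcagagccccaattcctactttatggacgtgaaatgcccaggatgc
Rps27l: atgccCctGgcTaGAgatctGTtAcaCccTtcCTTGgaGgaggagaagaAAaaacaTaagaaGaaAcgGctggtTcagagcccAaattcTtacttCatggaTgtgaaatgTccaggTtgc

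The first 120 coding bases of Rpl5 (plus strand, 3 exons, chr5:107900644-107902068) were the same in the processed copy Gm15500 (minus strand, 1 exon, chr7:114706044-114706163), and they are shown once because Rpl5 had the lowest level of the members above 1 TPM:
Rpl5: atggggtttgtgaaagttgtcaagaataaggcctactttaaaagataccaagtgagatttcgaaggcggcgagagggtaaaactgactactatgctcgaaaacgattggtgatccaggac

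Rpl36a (plus strand, 3 exons, chrX:134585717-134586521) and its single-exon paralog Rpl36al (minus strand, chr12:69183017-69183136) are shown as a pair that was measured at like levels. Capitals mark the 18 differing bases of 120:
Rpl36a: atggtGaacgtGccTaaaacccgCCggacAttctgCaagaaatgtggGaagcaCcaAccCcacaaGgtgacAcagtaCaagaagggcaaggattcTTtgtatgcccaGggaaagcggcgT
Rpl36al: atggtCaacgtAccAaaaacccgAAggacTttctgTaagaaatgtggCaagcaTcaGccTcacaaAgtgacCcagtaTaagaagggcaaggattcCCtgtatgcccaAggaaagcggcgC

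Ribosomal protein genes were among the most abundant transcripts of both glands. The 80 members together made up 5.96% of all TPM in pup 2 and 7.36% in pup 1 (6.66 ± 0.988%, SD, n = 2), and 2.67% of the estimated counts in pup 2 and 3.82% in pup 1. Members took 53 of the first 200 places when nuclear protein-coding genes were ranked by mean TPM. The median member had 623 TPM in pup 2 and 696 in pup 1. At 1 TPM or more in both pups there were 77 members, and the other 3 were below 1 TPM in both.

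The 77 members spanned a wide range of levels, although their proteins are used in about equal number. They reached from 29.9 to 2782 TPM in pup 2, a 93.0-fold range, and from 28.4 to 4463 TPM in pup 1, a 157-fold range. The middle 50% of them lay between 434 and 1043 TPM in pup 2 and between 471 and 1423 TPM in pup 1. Of the 77, 53 were within 2-fold of their median of 679 TPM (mean of the pups), 14 were above that range and 10 below it. The order of the members was much the same in both pups, with a Spearman correlation of TPM of 0.918 across the 77 genes, which share a library within each pup and are not independent of each other.

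**Figure D1:**
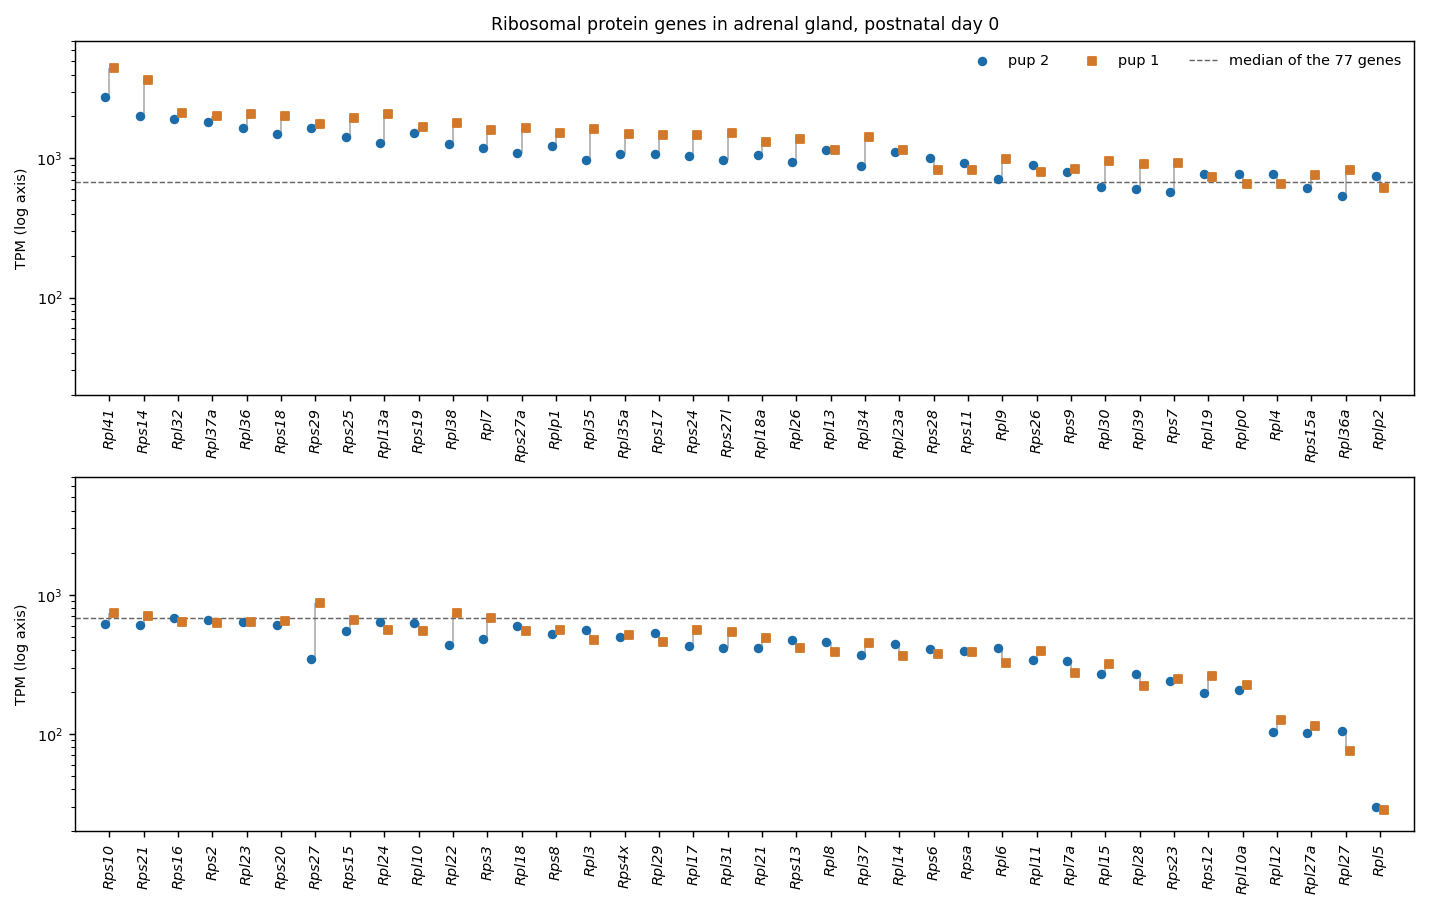
TPM of 76 of the 77 members at 1 TPM or more, on a log axis, ordered by mean TPM from Rpl41 to Rpl5. Circles show pup 2, squares pup 1, a grey line joins the pups, and the dashed line is the median of 679 TPM over the 77; Rpl12, Rpl27a, Rpl27 and Rpl5 sit apart at the low end in both pups.

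In the large subunit, 43 of 46 genes were at 1 TPM or more, and their median was 600.1 TPM in pup 2 and 637 in pup 1. Rpl41 (ENSMUSG00000093674.3, chr10:128548114-128549305) had 2782 TPM in pup 2 and 4463 in pup 1. Rpl32 (chr6:115805505-115808747) had 1906 TPM in pup 2 and 2107 in pup 1. Rpl37a (chr1:72711290-72713813) had 1820 TPM in pup 2 and 2017 in pup 1, and Rpl36 (chr17:56613416-56614243) 1646 TPM in pup 2 and 2079 in pup 1. All 4 encode small, basic large-subunit proteins, and their copies, described further on, held at most 7.18% of the counts of gene and copies in either pup.

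The low end was also held by large-subunit genes. Rpl5 (ENSMUSG00000058558.8, chr5:107900502-107909005), whose protein joins Rpl11 and a small ribosomal RNA in a particle that can bind the p53 regulator Mdm2, had 29.9 TPM in pup 2 and 28.4 in pup 1. Its partner Rpl11 had 339 TPM in pup 2 and 394 in pup 1. Rpl27 (chr11:101442298-101445529) had 105 TPM in pup 2 and 75.9 in pup 1. Rpl27a, Rpl12 and Rpl10a, all large-subunit genes, followed in order of level. Rpl27a had 101 TPM in pup 2 and 114 in pup 1, Rpl12 had 103 TPM in pup 2 and 125 in pup 1, and Rpl10a had 207 TPM in pup 2 and 223 in pup 1.

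In the small subunit all 31 genes were above 1 TPM, and their median was 655 TPM in pup 2 and 760 in pup 1, between a lowest value of 196 TPM (pup 2) and a highest of 3637 TPM (pup 1). Rps14 (ENSMUSG00000024608.6, chr18:60747098-60778546), whose human gene dose is linked to a myelodysplastic syndrome, had 2020 TPM in pup 2 and 3637 in pup 1. Rps18 had 1497 TPM in pup 2 and 2003 in pup 1. Rps29 had 1653 TPM in pup 2 and 1775 in pup 1, and Rps25, which viral internal ribosome entry sites need, had 1432 TPM in pup 2 and 1962 in pup 1. These 4 were the small-subunit genes among the 8 members with the highest mean TPM. Rps10 and Rps21 lay nearest the median of all 80: Rps10 had 618 TPM in pup 2 and 735 in pup 1, and Rps21 had 611 TPM in pup 2 and 707 in pup 1.

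Rps6, Rpsa and Rack1, which are also studied for roles beside peptide synthesis, lay below the middle 50% of the members in both pups. Rps6, the substrate of the S6 kinases and a common readout of mTOR activity, had 404 TPM in pup 2 and 376 in pup 1. All 750 coding bases of Rps6 also occur in its copy Rps6-ps4, which had a mean of at least 100 TPM. The level of Rps6 thus rests in part on how reads were divided. Rpsa, which is also known as a laminin receptor, had 392 TPM in pup 2 and 385 in pup 1. Rack1, a scaffold on the small subunit that falls outside the name rule, had 359 TPM in pup 2 and 374 in pup 1.

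The stalk of the large subunit recruits the elongation factors. Rplp0, which anchors it, had 778 TPM in pup 2 and 653 in pup 1. The acidic partners that dimerise on it differed in level: Rplp1 had 1220 TPM in pup 2 and 1530 in pup 1, while Rplp2 had 748 TPM in pup 2 and 609 in pup 1. Rplp1 was thus above Rplp2 in both pups.

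Copies of the members, defined by shared stretches of sequence, held a sizeable part of the family's counts. A copy row was defined as another gene, away from the member's locus, of which at least 10% of the 100-base windows also occur in a member's transcript. There were 251 such rows for 63 of the 80 members, 239 of them annotated as pseudogenes of some kind and 10 as protein-coding, with up to 17 rows for 1 member (Rps2 and Rpl21). The copies held 16.8% of the counts of members and copies together in pup 2 and 16.7% in pup 1, and 1.92% of all TPM in pup 2 and 2.31% in pup 1. Most copies had little: 30 of the 251 reached 100 TPM in pup 2 and 31 in pup 1. The 8 copies with the most counts held 49.3% of the copies' counts in pup 2 and 51.9% in pup 1.

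The copies with high values matched their member's coding sequence base for base in most cases. Of the 30 copies with a mean of at least 100 TPM, 18 held every coding base of the member, 7 more differed at 1 to 3 bases without a gap, and the remaining 5 aligned with a gap. The lowest identity among the 30 was 98.4% of the member's coding bases. The read length implied by the tables is 100 bases, so a read that falls within such a stretch fits both genes, and the deposited counts then rest on the quantifier's division.

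Rpl5 had the largest share of its counts in copies in both pups. Its 894 coding bases were all present in Gm15500, a transcribed processed pseudogene on chr7 that had 490 TPM in pup 2 and 549 in pup 1, against 29.9 TPM in pup 2 and 28.4 in pup 1 for Rpl5 itself. In estimated counts Gm15500 had 14782 in pup 2 and 20368 in pup 1, and Rpl5 had 1315 in pup 2 and 1807 in pup 1. Of the counts of Rpl5 and its 4 copies, the copies held 91.8% in pup 2 and 91.9% in pup 1. With the copies added, Rpl5 came to 521 TPM in pup 2 and 578 in pup 1, within 2-fold of the member median.

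Rps27 showed the same pattern in the small subunit. Its 255 coding bases occur whole in Rps27rt, an intronless gene on chr9 annotated as protein-coding. Rps27rt had 2100 TPM in pup 2 and 3035 in pup 1, and Rps27 (ENSMUSG00000090733.2, chr3:90212522-90213651) had 344 TPM in pup 2 and 874 in pup 1. The copy held 91.4% of the pair's counts in pup 2 and 85.8% in pup 1. Of the 100-base windows of Rps27, 98.4% occurred in another gene, the highest share among the members. Its effective length of 156 bases makes its TPM depend on few positions.

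In 8 further members the copies also held more counts than the member in both pups, namely Rpl27, Rps23, Rpl27a, Rpl12, Rpl15, Rps12, Rpl28 and Rpl10a. Rps23, which lies at the decoding centre, had 240 TPM in pup 2 and 247 in pup 1, while its copy Rps23-ps1 on chr3 had 1286 TPM in pup 2 and 1358 in pup 1. For Rpl27 the copies Rpl27-ps3 on chr18 and Gm11518 on chr11 both held all 411 coding bases. Rpl27-ps3 had 559 TPM in pup 2 and 505 in pup 1, and Gm11518 had 403 TPM in pup 2 and 374 in pup 1. Of the 10 members more than 2-fold below the median, 9 had copies with more counts than the member, and the tenth was Rpl7a, which binds ribosomal RNA in the large subunit, with 333 TPM in pup 2 and 273 in pup 1.

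Adding the copies to their members narrowed the range of levels. The ratio of the highest to the lowest of the 77 members fell to 9.35-fold with copies in pup 2, against 93.0-fold without them, and to 16.9-fold in pup 1, against 157-fold. The SD of log2 TPM across the members was 0.749 with copies and 1.08 without them in pup 2, and 0.910 with copies and 1.22 without them in pup 1. The number of members more than 2-fold below the median was 3 with copies (Rpl7a, Rpl6 and Rpsa) and 10 without them. More than 2-fold above it were 16 with copies and 14 without them, and within 2-fold 58 and 53. Rps29 became the highest in pup 2, at 3291.5 TPM with its copy and 1653 without it. That copy held 19.7% of their joint counts in pup 2, yet had 1639 TPM, because TPM is per length and its row is short. The 9.35-fold range in pup 2 rests on this sum over rows of unlike length. With copies Rpl7a was the lowest, at 352 TPM in pup 2 and 290 in pup 1. These sums count a copy's own transcription as the member's, and whether the copies are themselves transcribed was not tested.

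**Figure D2:**
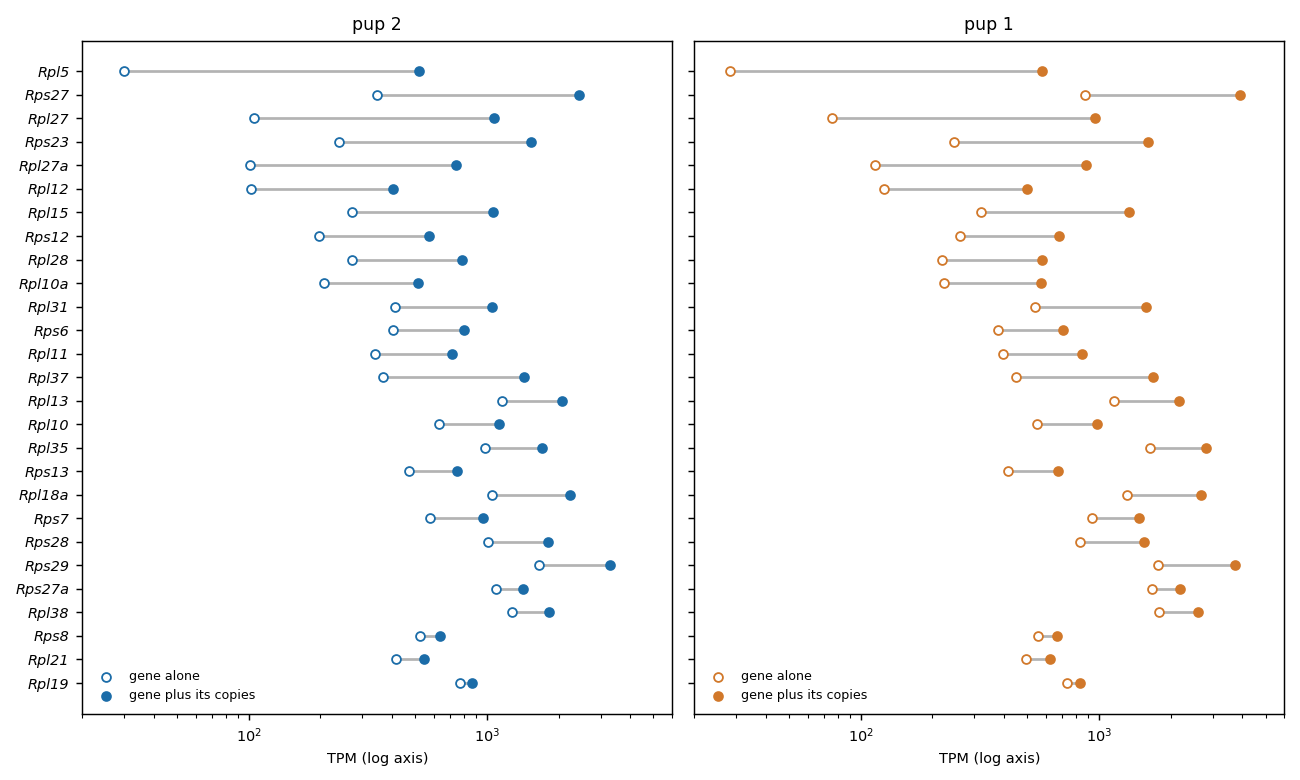
TPM on a log axis of the 27 members whose copies held over 10% of the counts in both pups, in pup 2 (left) and pup 1 (right), ordered by the copies' share of counts. Open circles are the gene alone and filled circles the gene plus its copies; Rpl5 moves to 521 TPM with its copies, against 29.9 TPM alone, in pup 2, and to 578 TPM, against 28.4 TPM, in pup 1.

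The quantifier's own record of uncertainty followed the shared sequence. The tables give each count a posterior standard deviation, which is 0 for most genes. Expressed over the square root of the posterior mean, so that 1 is the size of counting noise, it had a median of 0.290 in pup 2 and 0.297 in pup 1 over the 77 members, and of 0 in both pups over the 18670 genes whose counts averaged 10 or more. The count was not whole for 71 members in pup 2 and 72 in pup 1, against 29.2% of the 18670 genes in pup 2 and 28.5% in pup 1. This comparison is not matched for depth: 77 members averaged at least 1000 counts, as did 7509 of the 18670 genes. A median of 36.8% of a member's 100-base windows occurred in another gene, with 30 members over 50% and 12 with no such window, among them Rpl32, Rps3, Rps9, Rps20, Rpl22, Rpl23 and Rps27l. Windows were taken from a member's highest transcript, which is annotated with a retained intron for Rps20 and as non-coding for Rpl23. The coding transcripts of Rps20 and Rpl23 were therefore not searched.

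Across the 77 members the share of shared windows and this measure had a Spearman correlation of 0.773 in pup 2 and 0.773 in pup 1. The share of shared windows was negatively correlated with TPM, at -0.270 in pup 2 and -0.285 in pup 1, which was 0.0257 in pup 2 and -0.0507 in pup 1 once the copies were added. Copies are defined by the same windows, and their TPM is added only to members that share windows. The definition itself thus favours such a change. The genes are not independent points, and each correlation describes 1 library.

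The posterior standard deviation was above 2 times counting noise for 2 of the 80 members in both pups, Rps27 and Rpl10, and for 1.51% of the 18670 genes in each pup, a share near that of the members. Rps27 had 3.85 times in pup 2 and 2.96 times in pup 1, which amounts to 9.20% of its count in pup 2 and 3.98% in pup 1, the largest shares among the 77 members. Rpl10, an X-linked gene whose protein joins the large subunit late in assembly, had 2.37 times in pup 2 and 2.17 times in pup 1, or 1.97% of its count in pup 2 and 1.75% in pup 1. Its coding sequence of 645 bases occurs whole in the copies Rpl10-ps1 on chr2 and Rpl10-ps3 on chr9. Rps6, Rps12, Rpl13 and Rpl10a came next, between 1.66 and 1.92 times over both pups. For Rpl5 the copies' 91.8% of counts in pup 2 and 91.9% in pup 1 stood beside a smaller value of this measure, 1.30 times in pup 2 and 1.46 times in pup 1.

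**Figure D3:**
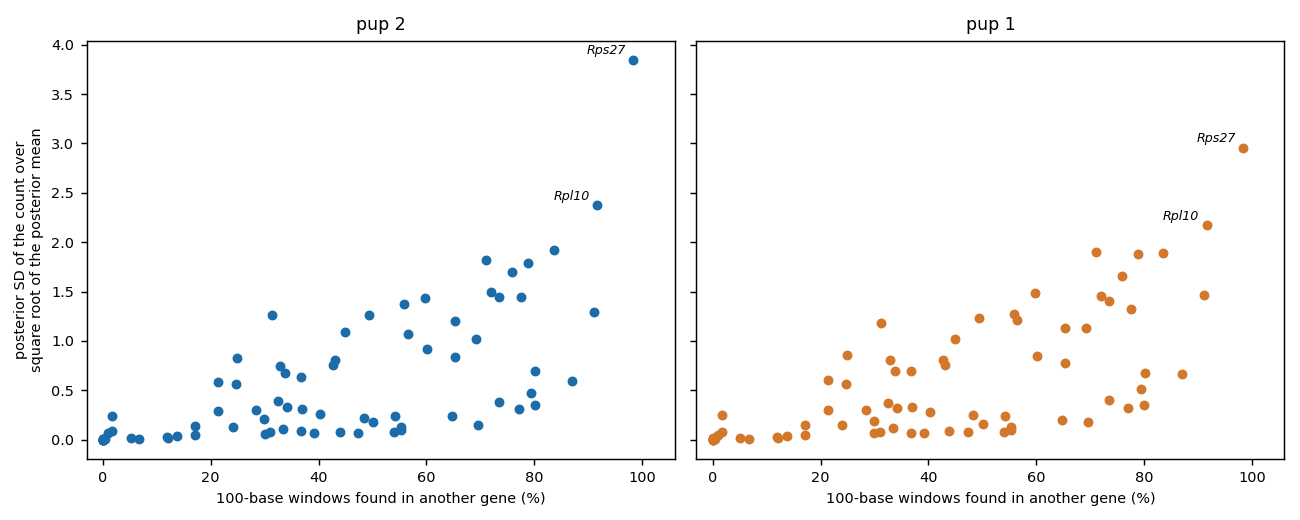
Posterior standard deviation of the count over the square root of the posterior mean (vertical, 1 is the size of counting noise) against the share of 100-base windows of the transcript that occur in another gene (horizontal, %), for 77 members in pup 2 (left) and pup 1 (right). Named are the genes above 2: Rps27 at 3.85 in pup 2 and 2.96 in pup 1, and Rpl10 at 2.37 in pup 2 and 2.17 in pup 1.

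Among the paralog pairs, 3 had the paralog above the gene it resembles, taken without its copies, in at least 1 pup. Unlike the processed copies, the paralogs differ from that gene over their coding sequence: identity was between 49.3% (Rpl7l1) and 87.9% (Rpl36al), and no identical run was longer than 38 bases, so 100-base reads within the coding sequence can tell them apart. Rps27l, which is induced by p53, had 973 TPM in pup 2 and 1525 in pup 1, 73.9% of the pair with Rps27 in pup 2 and 63.6% in pup 1. That share is of Rps27 without Rps27rt. With 2100 TPM in pup 2 and 3035 in pup 1, Rps27rt was itself above Rps27l in both pups. Rpl22l1 had 589 TPM in pup 2 and 1071 in pup 1, and Rpl22, which it can replace in mouse ribosomes, had 434 TPM in pup 2 and 740 in pup 1, so that Rpl22l1 made up 57.6% of the pair in pup 2 and 59.1% in pup 1. Neither Rpl22 nor Rps27l had a copy row.

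Rpl36al had 849 TPM in pup 2 and 721 in pup 1, and the X-linked Rpl36a had 537 TPM in pup 2 and 823 in pup 1. The paralog's share of this pair was 61.3% in pup 2 and 46.7% in pup 1, so the higher gene of the pair was not the same in both pups. Rpl7l1, a nucleolar relative of Rpl7, had 52.6 TPM in pup 2 and 45.0 in pup 1, or 4.25% of the pair in pup 2 and 2.75% in pup 1. Rps4l, annotated as a transcribed processed pseudogene and so no member, had 120 TPM in pup 2 and 107 in pup 1, or 19.5% of its pair with Rps4x in pup 2 and 17.2% in pup 1.

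The 3 members below 1 TPM are the tissue-restricted paralogs. Rpl3l, known from heart and skeletal muscle, had 15 counts (0.44 TPM) in pup 2 and 12 counts (0.30 TPM) in pup 1, while Rpl3 had 557 TPM in pup 2 and 471 in pup 1. Rpl10l, known from the testis, had 0 counts in both pups, where 3 counts would be worth 0.0990 TPM in pup 2 and 0.0804 in pup 1. Rpl39l, also known from the testis, had 6 counts (0.41 TPM) in pup 2 and 0 in pup 1, where 3 counts would be worth 0.129 TPM. The whole coding sequences of Rpl39 (minus strand, 3 exons, chrX:37082701-37085127) and Rpl39l (plus strand, 1 exon, chr16:10174310-10174465) are shown with their 23 differing bases of 156 in capitals, because Rpl39 had 600 TPM in pup 2 and 911 in pup 1 beside this near absence:
Rpl39: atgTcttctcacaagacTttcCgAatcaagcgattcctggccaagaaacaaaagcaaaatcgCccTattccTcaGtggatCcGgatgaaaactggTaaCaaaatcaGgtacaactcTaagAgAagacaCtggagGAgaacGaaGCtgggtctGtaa
Rpl39l: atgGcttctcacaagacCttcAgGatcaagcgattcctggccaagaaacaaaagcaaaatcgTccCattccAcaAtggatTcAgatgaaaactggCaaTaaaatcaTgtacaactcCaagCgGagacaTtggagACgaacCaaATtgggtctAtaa

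**Figure D4:**
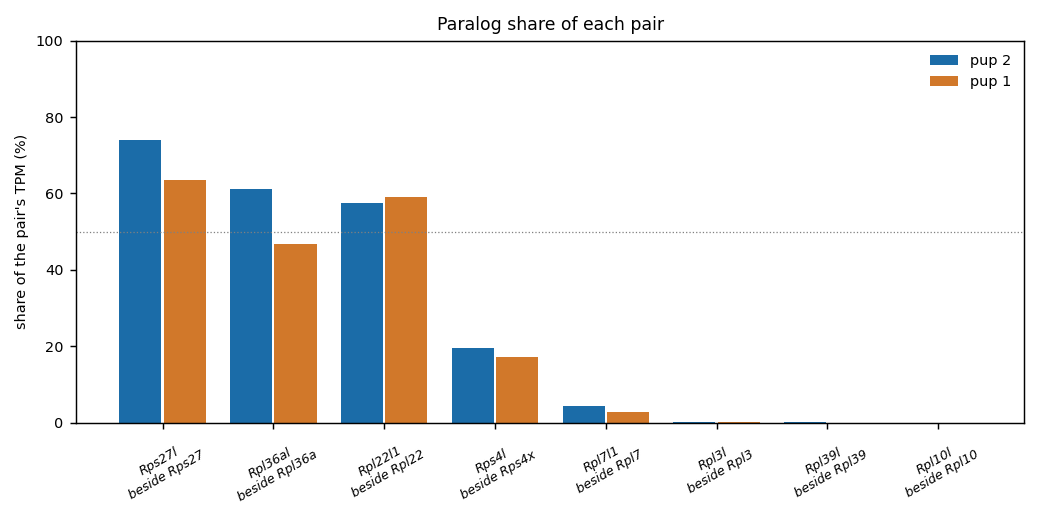
Share of the pair's TPM (%) in the paralog named first under each bar pair, in pup 2 (left bar) and pup 1 (right bar), with a dotted line at 50%. Rps27l and Rpl22l1 are above 50% in both pups, Rpl36al in pup 2 only (61.3%, against 46.7% in pup 1), and Rpl3l, Rpl39l and Rpl10l are at or near 0. Copies are left out of the pairs, among them Rps27rt, which was above Rps27l in both pups.

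The members were lower in pup 2 than in pup 1 relative to the other genes. The log2 ratio of pup 2 over pup 1 was computed from counts scaled by TMM for the 78 members with a mean count of at least 10. Its median was -0.57, against 0.00 over all 18670 genes that passed the same minimum, and the middle 50% of the members lay between -0.84 and -0.28. The ratio was above 0 for 2 members, Rpl27 and Rpl3l (50.2% of all genes), and below 0, that is higher in pup 1, for 76 of the 78 (49.8% of all genes), while scaling by the spike-ins puts all 78 higher in pup 2 with a median of 2.00. The spike-ins, with 1022 counts in pup 2 and 5717 in pup 1, move every gene up by 2.57, and total counts move the median gene to 0.11.

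The gap between the members and the median gene was -0.57 with TMM. DESeq2, total-count and spike-in scaling move every gene by 1 constant and so leave this gap as it is. In deposited TPM the median ratio was -0.17 for the members and 0.39 for all genes, a gap of -0.56, and 53 of the 78 members had the higher TPM in pup 1, where 27.4% of all genes did. With a trend on transcript length and GC content removed, the gap was -0.37 and 63 of the 78 members had the higher value in pup 1. Where counts averaged 100 or more, the SD of the log2 ratio was 0.349 over 77 members and 0.635 over the 13793 other genes. All 77 of these members averaged at least 1000 counts, and the other genes were not matched to that depth.

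**Figure D5:**
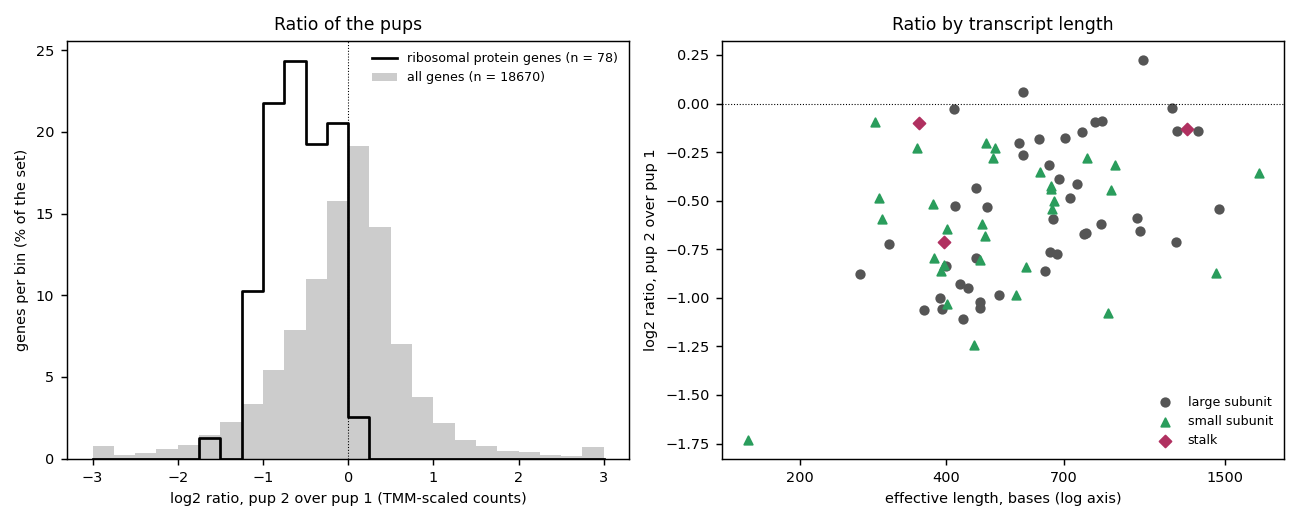
Left, percent of genes per bin of the log2 ratio of pup 2 over pup 1 from TMM-scaled counts, for 78 ribosomal protein genes (black line, median -0.57) and all 18670 genes (grey bars, end bins hold values beyond the axis); with spike-in scaling all values move up by 2.57 and the members' median is 2.00. Right, the same ratio of each member against effective length in bases (log axis), by subunit; Rps27 lies lowest and shortest.

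With TMM scaling 9 of the 78 members were more than 2-fold apart (11.5%, against 15.8% of all genes), all higher in pup 1 (9.76% of all genes) and 0 higher in pup 2 (6.03%), whereas spike-in scaling puts 77 over 2-fold, all higher in pup 2. The share of members over 2-fold was thus near that of all genes. Rps27 had the largest difference, with 1759 counts in pup 2 and 5501 in pup 1 and a log2 ratio of -1.73 (interval -1.81 to -1.65). Its copy Rps27rt had a ratio of -0.92, and with the counts of both genes added the ratio was -1.01. Rps14 had 30111 counts in pup 2 and 67225 in pup 1, a ratio of -1.24 (-1.26 to -1.22), and its copy held 0.229% of their joint counts in pup 2 and 0.271% in pup 1. Rpl35 had a ratio of -1.11 (-1.14 to -1.08), Rps7 of -1.08 (-1.11 to -1.05) and Rpl41 of -1.06 (-1.08 to -1.04). The other 4 were Rpl34, Rpl13a, Rps27l and Rpl22, between -1.06 and -1.02. With a trend on length and GC removed, 1 member was over 2-fold apart, Rps27 at -1.08.

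At the other end the pups had equal or nearly equal scaled counts. Rpl27 had 1963 counts in pup 2 and 1779 in pup 1, with a ratio of 0.06 whose interval of -0.04 to 0.15 includes 0. Rpl6 had a ratio of -0.02 (-0.06 to 0.01), and Rpl28, a large-subunit protein that budding yeast lacks, of -0.03 (-0.10 to 0.04), and both intervals include 0. Rpl14 and Rps28 had ratios of -0.09 each, with intervals of -0.12 to -0.05 and -0.13 to -0.05. For 74 of the 78 members the counting interval excluded 0, against 69.6% of all 18670 genes. All 74 were among the 77 members with a mean count of at least 1000, and of all 7509 genes that deep, 83.6% had an interval that excluded 0.

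By role, the median ratio was -0.59 for 43 large-subunit genes, -0.54 for 31 small-subunit genes and -0.72 for the 4 X-linked genes. The stalk genes were closer to 0 with a median of -0.13: Rplp0 had -0.13 and Rplp2 -0.10, while Rplp1 had -0.71. Short transcripts had the more negative ratios among members and other genes alike. Members with an effective length under 400 bases had a median of -0.79 (n = 17), against -0.51 for the 150 other protein-coding genes of that length. From 400 to 700 bases the members had -0.59 (n = 37) and the 593 others -0.40, and from 700 bases on the members had -0.41 (n = 23) and the 14972 others 0.02. The Spearman correlation of effective length and ratio was 0.357 over 77 members and 0.0925 over all genes with a GC value.

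On the same TMM scale the erythroid markers had a median ratio of -0.62 (5 of 5 higher in pup 1) and the liver markers of -0.75 (4 of 4), both reversed by spike-in scaling, and the stomach markers of -4.91 (3 of 3). Steroidogenic and chromaffin markers had a median of 1.08 (10 of 11 higher in pup 2) and the muscle markers of 1.56 (3 of 3 higher in pup 2). The part of tissue makeup in the members' ratios was not tested.

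Gene lists next to the ribosome fell on both sides of 0 with TMM scaling, while spike-in scaling makes the median of each one positive. In deposited TPM 72.1% of all genes were higher in pup 2, so the TPM counts of a list are to be read against that share. The 6 ribosomal protein genes whose names lie outside the rule, among them Rps3a1, Rpl22l1 and Rpl36al, had a median ratio of -0.24 and were all higher in pup 1, from Rpl22l1 at -1.23 to Rpl36al at -0.14, but in deposited TPM 4 of them were higher in pup 2 (median 0.14), still below the 0.39 of all genes. A list of 9 elongation factors and related genes took in Eef1e1, Eef2k and Tpt1, which are not elongation factors. Of the 9, 6 had the higher scaled count in pup 1 (median ratio -0.30). In deposited TPM, however, 7 were higher in pup 2 and the median was 0.08, also below the 0.39 of all genes. Eef1a1, which brings aminoacyl-tRNA to the ribosome, had 2194 TPM in pup 2 and 2169 in pup 1 and a ratio of -0.33, and Tpt1, a growth-related protein with a pyrimidine-tract messenger, had 1041 TPM in pup 2 and 1139 in pup 1 and -0.51. Eef1a2, the form known from muscle and neurons, had 2.15 TPM in pup 2 and 4.66 in pup 1 and a ratio of -1.50, and Eef1d, an exchange factor subunit, had a ratio of 0.12.

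Other messengers with pyrimidine tracts were split, 5 of 10 higher in each pup, with a median of -0.14, and in deposited TPM 9 of 10 were higher in pup 2 (median 0.27), against 0.39 for all genes. Npm1, a nucleolar chaperone, had 437 TPM in pup 2 and 391 in pup 1 (ratio -0.28), and Btf3, part of the nascent chain complex, had 437 TPM in pup 2 and 333 in pup 1 (0.00). Eif3h, an initiation factor subunit, had the most negative ratio at -0.43 and Eif3a the most positive at 0.28.

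The machinery that builds ribosomes was on the other side. Of 25 ribosome assembly genes 21 had the higher scaled count in pup 2 (median ratio 0.23), as did 9 of 12 genes of RNA polymerase I transcription (median 0.21), and in deposited TPM these were 24 and 11 genes, with medians of 0.62 and 0.58 against 0.39 for all genes. Mybbp1a, a nucleolar protein, had a ratio of 0.58, and Gar1, of the pseudouridylation complex, of 0.55. Nop10, from the same complex as Gar1, had 255 TPM in pup 2 and 263 in pup 1 and a ratio of -0.43. Polr1a, the largest subunit of RNA polymerase I, had 11.1 TPM in pup 2 and 5.08 in pup 1 and a ratio of 0.75, while Taf1d had -0.85. No gene of either list was over 2-fold apart with TMM scaling.

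Genes of growth control had a median ratio of 0.17, with 9 of 11 higher in pup 2. Eif4ebp2, which restrains cap-dependent translation, had 0.60 and Mycn -0.70. Eif4ebp1 had 110 TPM in pup 2 and 76.0 in pup 1, and the cap-binding Eif4e had 58.0 TPM in pup 2 and 36.0 in pup 1. The mitochondrial ribosome is separate from the cytosolic one. It was followed through the 77 protein-coding genes named Mrpl or Mrps with a number, a list made by name only. These had a median ratio of -0.03 and were split, 34 higher in pup 2 and 43 in pup 1. In deposited TPM, however, 59 were higher in pup 2 (median 0.35, against 0.39 for all genes). With total counts 43 were higher in pup 2 (median 0.08, against 0.11). The median level of the 77 genes was 101 TPM in pup 2 and 67.9 in pup 1. Mrps14 had 338 TPM in pup 2 and 356 in pup 1, and Mrps33 had 258 TPM in pup 2 and 396 in pup 1. Mrps33 had a ratio of -0.93 and Mrpl10 of 0.65, the most extreme in each direction with TMM scaling.

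Most members were measured mainly through 1 transcript. Of the 77 members, 58 had more than 1 annotated transcript, and in 57 of these the same transcript was highest in both pups. Among these 58, the highest transcript held a median of 88.0% of the gene's TPM in pup 2 and 88.8% in pup 1, and over 90% in both pups for 27. With the 19 single-transcript members, 46 of the 77 were over 90% in both pups. In Rpl38 the highest transcript differed between the pups. The transcript taken as highest over both pups held 41.7% of Rpl38 in pup 2 and 45.9% in pup 1. The share of the highest transcript differed most in Rpl5, at 48.9% in pup 2 and 68.6% in pup 1. Transcripts of Rpl5 annotated with a retained intron held 44.05% in pup 2 and 26.7% in pup 1. All 894 coding bases of Rpl5 also occur in Gm15500, which had the larger count. These shares of Rpl5 thus depend on how reads were divided.

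In 6 members the highest transcript was not annotated as protein-coding. For Rps20, 94.1% of the TPM in pup 2 and 94.0% in pup 1 was in transcripts annotated with a retained intron. For Rpl12 a transcript annotated for nonsense-mediated decay held 64.1% in pup 2 and 62.3% in pup 1. For Rpl35 a non-coding transcript held 87.9% in pup 2 and 87.4% in pup 1, and coding transcripts held 3.57% in pup 2 and 3.26% in pup 1. Rpl23 and Rps18 were led by transcripts of the same class, which held 65.6% of Rpl23 in pup 2 and 62.7% in pup 1, and 51.3% of Rps18 in pup 2 and 49.5% in pup 1. The copy Gm10275 holds all 498 coding bases of Rpl12, and Gm2000 holds 371 of the 372 of Rpl35. The transcript shares of Rpl12 and Rpl35 thus also depend on how reads were divided. The highest transcript of Rpl13a, at 46.6% in pup 2 and 46.7% in pup 1, is not in the annotation used here, so its type is unknown. In all, 15 members, Rpl13a among them, had less than 90% of their TPM in transcripts annotated as coding in both pups. The gene-level TPM above counts every transcript.

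The starts of the members carried pyrimidine tracts more often than starts in general. RefSeq start sites on GRCm38.p6 were at hand for 60 of the 80 members and for 27025 gene symbols in all. Within 10 bases on either side of the start, on the gene's strand, 19 of the 60 members (31.7%) had at least 1 of 3 tracts, against 9.84% of all symbols. The tract CTTTC was in 11 members (18.3% against 2.91% of all symbols), CTTCC in 9 (15% against 5.02%) and CTTTT in 4 (6.67% against 2.39%), and a window can hold more than 1. Within 100 bases before the start, on either strand, CCGGAAG, the core of many ETS factor sites, was in 12 members (20.0% against 5.22%) and the E-box CACGTG in 1 (1.67% against 3.70%). TATAAA between 40 and 15 bases before the start, on the gene's strand, was in 0 of the 60 (2.41% of all symbols).

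The 20 bases on either side of the start are shown for 4 members of high mean TPM whose start has a tract, as examples, with the tracts in capitals and the start at base 21. They are Rps18 (minus strand, chr17:33955646-33955685), Rpl38 (plus strand, chr11:114668560-114668599), Rpl35 (minus strand, chr2:39005112-39005151) and Rpl35a (plus strand, chr16:33056462-33056501):
Rps18: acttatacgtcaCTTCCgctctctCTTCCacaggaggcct
Rpl38: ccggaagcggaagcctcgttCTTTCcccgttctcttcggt
Rpl35: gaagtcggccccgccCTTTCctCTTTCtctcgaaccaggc
Rpl35a: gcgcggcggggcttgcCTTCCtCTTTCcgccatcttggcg
A match of these letters is a description of the sequence, and no measurement here bears on the use of a tract.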

How the data were processed

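Total RNA of 2 adrenal libraries (1 group, pup 2 and pup 1) was analysed from the authors' tables. Per the file headers these deposited tables hold expected counts, which are estimated and often fractional, posterior mean counts with standard deviations, TPM with bounds, FPKM, lengths and, per transcript, the percent of the gene's TPM. Per the text deposited with each library the build is mm10 and the annotation GENCODE M4. For the aligner, the quantifier and the strand setting: not given in the sources used here. Without stated strand handling, reads of overlapping genes cannot be told apart.

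The members and lists were chosen with earlier results of these data known. Symbols, types and coordinates come from GENCODE M21 (GRCm38), which names 42462 of the 43346 genes. Counts were rounded, scaled by TMM (edgeR 4.0.16, R 4.3.3), and compared as log2 of pup 2 over pup 1 after adding 0.5, for a mean count of at least 10. The 95% intervals are exact binomial (scipy 1.17.1). A floor is 3 counts per library. Both cover counting error only, as no molecular identifiers are recorded. Spike-in rows and 26248 numbered rows, at 0.00250% and 9.59e-05% of counts in pup 2 and 0.0138% and 2.65e-05% in pup 1, stayed out of library sizes.

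Shared windows were searched on both strands, in M21 transcripts also listed in the tables, from the member's highest such transcript. That was the overall highest for 79 of 80 members, and it had the tables' length for 55. Coding identity used the coding sequence carried by most transcripts. Named are the 8 highest and 8 lowest members by mean TPM, the 5 largest ratios each way at a mean count of at least 100, the 6 largest posterior standard deviations over the root of the mean, the 2 nearest the median, the paralog pairs, stalk genes, Rpsa, Rps6 and Rack1, and of each list the 2 highest and 2 largest ratios. Copies, isoforms and other genes were named after their values were seen, and a few list genes of the rule are left unnamed. Alternatives were DESeq2 1.42.0 size factors, spike-in or total-count scaling, other units, minimums, pseudocounts and member sets, a trend on length and GC (polynomials of degree 3), and, chosen after seeing the data, copy rows added to members and the lists under each scaling. The ratio step was tested on simulated data. No test between pups was run. Some items are not reported here. Tables were handled in pandas 2.3.3 with numpy 2.4.6 on python 3.11.15, and plots drawn with matplotlib 3.10.9.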

Additional observations from a re-analysis of the deposited data

How the results depend on the processing

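The median TPM of the members was 959 when TPM was rescaled over nuclear protein-coding genes, 764 with rows named as pseudogenes added and 807 with copy rows added (chosen after seeing the data), against 659.6 as reported (mean of the medians of the pups). Their share of TPM was 9.72% over nuclear protein-coding genes and 8.77% with copies, and the SD of log2 TPM was 0.829 with copies. The median log2 ratio was 2.00 with spike-in scaling, which reverses its direction, -0.46 with total counts, -0.17 in deposited TPM and -0.32 with the length and GC trend removed. Members higher in pup 2 then numbered 78, 8, 25 and 15, and 1 at a mean count of at least 100. With spike-in scaling 0 members were higher in pup 1. Members over 2-fold apart numbered 77 with spike-ins, 2 with total counts, 1 in TPM and 1 without the trend. Members counted as sharing reads numbered 2 by the posterior standard deviation, 6 by a difference of over 0.1% between expected and posterior mean counts, 30 by over 50% of 100-base windows and 46 by over 50% of 50-base windows. Leaving out each pup in turn, the median TPM was between 623 and 696, the share of TPM between 5.96% and 7.36% and the SD of log2 TPM between 1.08 and 1.22. The causes of these shifts were not tested. No paired analysis was possible because 1 group of 2 pups holds no comparison between groups. Depth limits the values of Rpl3l, Rpl10l and Rpl39l, at 15 counts or fewer per pup.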
